A study of Mus musculus with 32 samples.

Results

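The change of the dexamethasone (dex) response over time in S49 (Neo) cells was described, that is, the difference between dex and control at 48 h minus the same difference at 24 h, for every gene. All S49 (Neo) libraries entered it, 16 of the 32 libraries of the series, with 4 replicates in each of 4 groups. S49 is a mouse lymphoma line of T-cell origin. In S49 (Neo) cells a retrovirus had stably introduced the gene for resistance to G418 (neomycin), which all 4 groups carry, controls included. The groups were vehicle (control) for 24 h, 250 nM dex for 24 h, vehicle for 48 h and 250 nM dex for 48 h. The other 16 libraries hold the same 4 groups of S49 (Bcl-2) cells, which also carry an introduced Bcl-2 gene.

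Poly(A)-enriched RNA was sequenced, and the deposited table gives 1 normalized log2 value per gene and library. Every value below is on this log2 scale, where a difference of 1 is a doubling. Whether the line is a single clone, and whether replicates were separate cultures, is not given in the sources used here, so the p-values measure the spread between these libraries, which may be technical. RNA was taken from the whole culture, and S49 (Neo) cells die under dex within this period. In such bulk samples fewer cells of a type and less RNA per cell cannot be told apart.

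Dex is a synthetic glucocorticoid that binds the glucocorticoid receptor (the product of Nr3c1), a transcription factor that moves to the nucleus, raises many genes directly and lowers others. In thymocytes and lymphoid lines this programme ends in apoptosis through the Bcl-2 family of mitochondrial death regulators. A response at 2 times can differ because the treated cells moved or because the control cells did. Each change is the movement from 24 h to 48 h in dex libraries minus that in control libraries. For many genes and lists below both movements or the library values are given. Where only a change is given, it does not tell which side moved.

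None of the 16 libraries stood apart by its spread, with an SD of 0.107 to 0.164 from the mean of the other libraries of its group over the genes tested. The replicate 4 libraries did differ from the others in the same direction in all 4 groups, as given under the other observations. The mouse gene Bcl2 was at 7.70 to 8.62 in S49 (Neo) libraries, which lack the introduced gene, and at 10.48 to 11.45 in S49 (Bcl-2) libraries. How far reads of the introduced gene were counted under Bcl2 is not given in the sources used here. The T-cell genes Cd3e, Cd3g, Cd3d, Thy1 and Lck were at 11.55 to 15.43 in the 16 libraries, while Cd8a reached 5.70 and Cd4 reached 3.35. Of the markers of B cells, macrophages, stroma and red cells looked up, 8 passed the minimum mean of 3.46 set for testing, with Kdr, Ms4a1, S100a8, S100a9 and the 4 globin genes at 0 in all libraries. The 8 were Itgam at 9.14 to 9.96, Pecam1 at 8.82 to 10.64, Cd68 at 6.82 to 7.48, Fcgr3 at 4.56 to 6.70, Blnk at 3.97 to 5.10, Alas2 at 4.38 to 4.95, Lyz2 at 3.41 to 5.13 and Vpreb1 at 3.58 to 4.15.

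Of the 11515 genes tested in S49 (Neo) cells, the dex response was higher at 48 h than at 24 h for 2445 genes (21.2%) and lower for 2317 genes (20.1%), at a Benjamini-Hochberg adjusted p under 0.05 in limma. Most of these changes were small, with a median size of 0.30 among the 4762 genes called. With all 32 libraries of both lines in 1 fit, 1008 were called higher and 1217 lower, and 49 of the 72 counts by gene list moved by more than 1.5 times. A change of at least 1 was found for 70 genes in the higher direction and 170 genes in the lower direction. For comparison, dex against control was called higher for 32% and lower for 35.8% of genes at 24 h, and for 35.6% and 36.2% at 48 h. The plot of the response at both times shows genes called in both directions along most of its range.

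**Figure D1:**
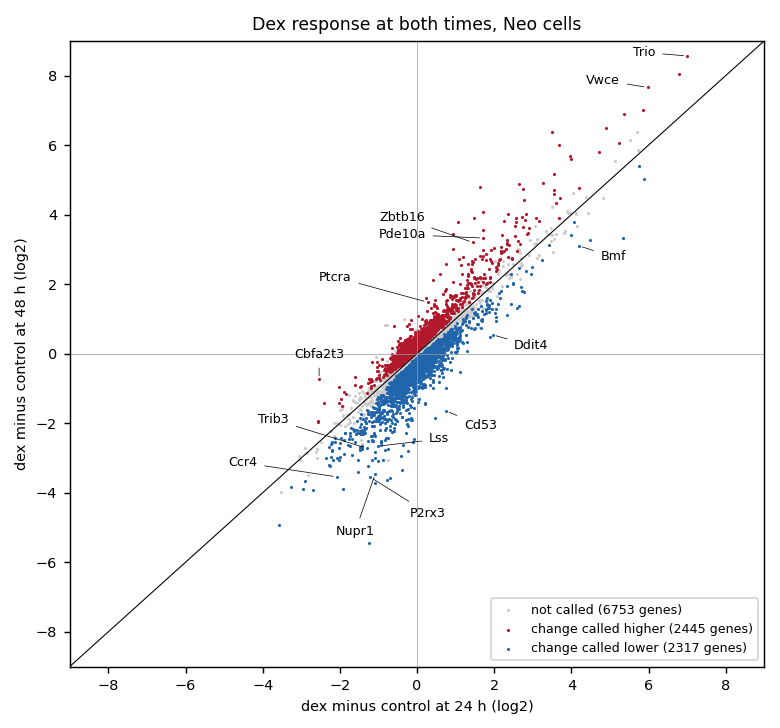
Dex minus control at 24 h (horizontal axis) and at 48 h (vertical axis), both in log2 units, for the 11515 genes tested in S49 (Neo) cells, with the line of equal response drawn. The 2445 genes called higher (red) lie above the line and the 2317 called lower (blue) below it, and 14 genes described in the text are named.

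By their response at each time, the 4762 genes fell into 5 kinds, with 43 genes called at neither time left over. The response grew in the same direction for 1650 genes, for example Ccr4 and Trio. It came late, called at 48 h but not at 24 h, for 1174 genes such as Cmah. It was present at 24 h and no longer called at 48 h for 882 genes such as Fads1, faded but remained called for 659 genes such as Ddit4 and Cbfa2t3, and turned from one direction to the other for 354 genes such as Syt13 and Nsdhl. In a fit of all 32 libraries these counts were 830 for growing, 676 for late, 399 for lost, 185 for fading and 119 for turning responses.

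The control cells moved more between the times than the treated cells. From 24 h to 48 h, 33.7% of genes were called higher and 30.8% lower in controls, against 22.3% and 19.5% in dex libraries, and the median size of the movement was 0.193 in controls and 0.118 under dex. Among the 2445 genes with a higher change the control mean had moved further than the dex mean for 75.8%, and among the 2317 with a lower change for 79.5%. These shares compare parts of the same difference, so they are a description without a test. Large changes were unlike in the 2 directions. Of the 170 genes lower by at least 1, the control had moved more for 150, whereas of the 70 genes higher by at least 1 it had done so for 12. Genes low in controls can pass the minimum mean through their dex libraries alone, so these counts depend in part on that minimum.

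Among genes with a mean of at least 6.66 over the 16 libraries, 9 of the 15 largest higher changes belonged to genes that dex had already raised at 24 h and that moved further in dex libraries than in controls. Some of them pass that minimum only through their dex libraries, Erc2 for example being at 2.82 to 4.02 in controls. The count is thus partly set by the minimum and is a description. Larger changes below that level, picked out after their values were seen, reached 3.15 in Phactr3, a regulator of actin and protein phosphatase 1, and -4.21 in Nos2, the inducible nitric oxide synthase. Trio, at chr15:27730651-28025848 of mm10, encodes a guanine nucleotide exchange factor of small GTPases. At 24 h it was at 5.34, 4.78, 4.40 and 5.03 in the 4 control and 12.02, 11.74, 11.89 and 11.89 in the 4 dex libraries. At 48 h the control values were 5.25, 4.90, 5.34 and 5.12 and the dex values 13.81, 13.58, 13.72 and 13.75. The controls of both times overlapped, and every 48 h dex value was above every 24 h dex value. The response of Trio went from 7.00 to 8.56, a change of 1.57 ± 0.20 (SE, adjusted p = 1.85e-05), of which 1.83 was movement under dex.

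Pde10a, a cyclic nucleotide phosphodiesterase, also rose further. Its 24 h values were 5.44, 5.34, 5.42 and 5.59 in controls and 6.98, 7.16, 7.01 and 7.49 under dex, and its 48 h values were 5.66, 5.21, 5.58 and 5.50 in controls and 8.87, 8.74, 8.83 and 8.81 under dex. Here too the controls overlapped between times while the dex groups did not, and the change was 1.61 ± 0.15 (adjusted p = 1.14e-06). Zbtb16, a zinc-finger repressor and known glucocorticoid receptor target, behaved alike at a low level. It was at 4.70, 4.60, 4.72 and 4.47 under dex at 24 h and 6.44, 6.12, 6.26 and 6.29 under dex at 48 h, against 2.59 to 3.42 over the 8 control libraries. The change was 1.75 ± 0.20 (adjusted p = 5.43e-06). All control values of Zbtb16 lay under the minimum mean set for testing, which the gene passed only through its dex libraries. Its p-value is therefore to be read with caution. St6galnac2 (a sialyltransferase, change 1.63), Kcnip3 (a potassium channel-interacting calcium sensor, 1.60), Ppp1r32 (1.53), Erc2 (1.16) and Klk4 (a kallikrein protease, 1.25) were also called on the dex side only, that is, their movement passed the test in dex libraries and not in controls.

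Vwce, a gene for a secreted protein with von Willebrand factor domains, moved on both sides of the comparison. Its 24 h values were 6.51, 6.03, 6.30 and 6.06 in controls and 12.30, 12.13, 12.30 and 12.05 under dex. At 48 h they were 5.63, 5.58, 5.51 and 5.12 in controls and 13.28, 12.89, 13.27 and 13.03 under dex. The control had fallen by 0.76 and the dex value had risen by 0.92, neither overlapping between times, so that the response grew from 5.97 to 7.66 (change 1.69 ± 0.17, adjusted p = 1.87e-06).

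Among abundant genes, smaller further rises were measured precisely. B2m, the invariant chain of MHC class I, was at 14.42, 14.47, 14.39 and 14.47 in controls and 15.80, 15.76, 15.77 and 15.90 under dex at 24 h, and at 14.25, 14.38, 14.37 and 14.39 and 16.33, 16.40, 16.44 and 16.30 at 48 h. Only the dex groups were separated between times, and the change was 0.65 ± 0.059 (adjusted p = 7.11e-07). Gpam, the first enzyme of glycerolipid synthesis, moved in the same way, with a dex mean higher by 0.53 at 48 h, a control mean different by -0.047 and a change of 0.57 ± 0.044 (adjusted p = 1.11e-07).

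Falls that deepened in the treated cells were led by Ccr4, a chemokine receptor of T cells at chr9:114490316-114504916, which had the smallest p of the genes whose response grew. Its 24 h values were 11.40, 11.49, 11.46 and 11.31 in controls and 9.29, 9.34, 9.34 and 9.35 under dex. Its 48 h values were 10.84, 10.90, 10.93 and 10.86 in controls and 7.37, 7.35, 7.39 and 7.24 under dex. The 4 groups formed 4 separate levels, and the fall under dex deepened from -2.08 to -3.54, a change of -1.46 ± 0.065 (adjusted p = 2.32e-10). Ifi202b, an interferon-inducible gene of a cluster of near-identical copies whose reads may be shared, had a change of -1.24, with a movement of -1.47 under dex and -0.24 in controls.

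Syt13, an atypical synaptotagmin, turned. It was at 11.73, 11.77, 11.69 and 11.67 in controls and 11.93, 11.94, 11.89 and 11.84 under dex at 24 h, and at 11.36, 11.45, 11.54 and 11.39 in controls and 10.40, 10.47, 10.52 and 10.57 under dex at 48 h. All 4 dex libraries were above all controls at 24 h and below all controls at 48 h, with responses of 0.19 and -0.95 and a change of -1.13 ± 0.061 (adjusted p = 3.22e-09).

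Among the 15 largest lower changes at that level, the control libraries had moved further than the dex libraries in 14, upwards in each. Cd53, a leukocyte tetraspanin at chr3:106759921-106790149, had the lowest change of these. Its 24 h values were 7.59, 7.34, 7.60 and 8.73 in controls and 8.37, 8.34, 8.37 and 9.16 under dex. By 48 h the controls were at 10.09, 10.34, 10.84 and 10.99 and the dex libraries at 8.66, 8.97, 8.76 and 9.30. The groups overlapped at 24 h because of control replicate 4, and at 48 h every control was above every dex library. Cd53 thus turned from 0.74 to -1.64 (change -2.39 ± 0.37, adjusted p = 0.000113), with 2.75 of movement in controls and 0.36 under dex.

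P2rx3, an ATP-gated ion channel at chr2:84998583-85037462, had a fall that grew. At 24 h it was at 7.93, 8.06, 8.33 and 8.65 in controls and 6.87, 7.22, 6.88 and 7.16 under dex. At 48 h it was at 9.72, 10.21, 10.38 and 10.41 in controls and 6.41, 6.53, 6.89 and 6.68 under dex. The dex groups overlapped between times and the controls did not, and the response went from -1.21 to -3.55 (change -2.34 ± 0.23, adjusted p = 1.31e-06). Cmah, the hydroxylase of sialic acid, gave a late response in this way, being at 7.53 to 8.04 over all 24 h libraries, at 9.16, 8.96, 9.16 and 9.43 in 48 h controls and at 7.78, 7.81, 7.65 and 7.81 under dex at 48 h (change -1.63 ± 0.13, adjusted p = 2.37e-07).

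Il10ra, the ligand-binding chain of the interleukin 10 receptor, was higher under dex at 24 h and lower at 48 h. Its 24 h values were 10.08, 9.28, 9.69 and 10.30 in controls and 11.06, 10.83, 10.94 and 10.95 under dex, its 48 h values 11.10, 10.98, 11.05 and 11.47 in controls and 10.58, 10.71, 10.26 and 10.93 under dex. The dex and control groups did not overlap at either time, and the change was -1.64 ± 0.24 (adjusted p = 6.95e-05). Of those 15 genes, Smox (spermine oxidase) was the one where a strong rise under dex shrank, from 5.35 to 3.33, again with the movement in controls (1.78) and little under dex (-0.23).

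Cbfa2t3, a corepressor of blood cell development, had the largest higher change at a mean of at least 6.66 and moved mainly in controls. Its values at 24 h were 9.75, 9.85, 9.58 and 9.68 in controls and 7.27, 7.32, 7.14 and 6.97 under dex, and at 48 h 8.67, 8.63, 8.37 and 8.15 in controls and 7.84, 7.42, 7.73 and 7.86 under dex. The controls fell by 1.26 without overlap and the dex libraries rose by 0.53, so its fall under dex faded from -2.54 to -0.74 (change 1.79 ± 0.16, adjusted p = 8.07e-07). Angptl2 (1.38), P2rx1 (1.36) and Epha2 (1.12) were other large higher changes called on the control side only. The plot of library values sets these kinds side by side.

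**Figure D2:**
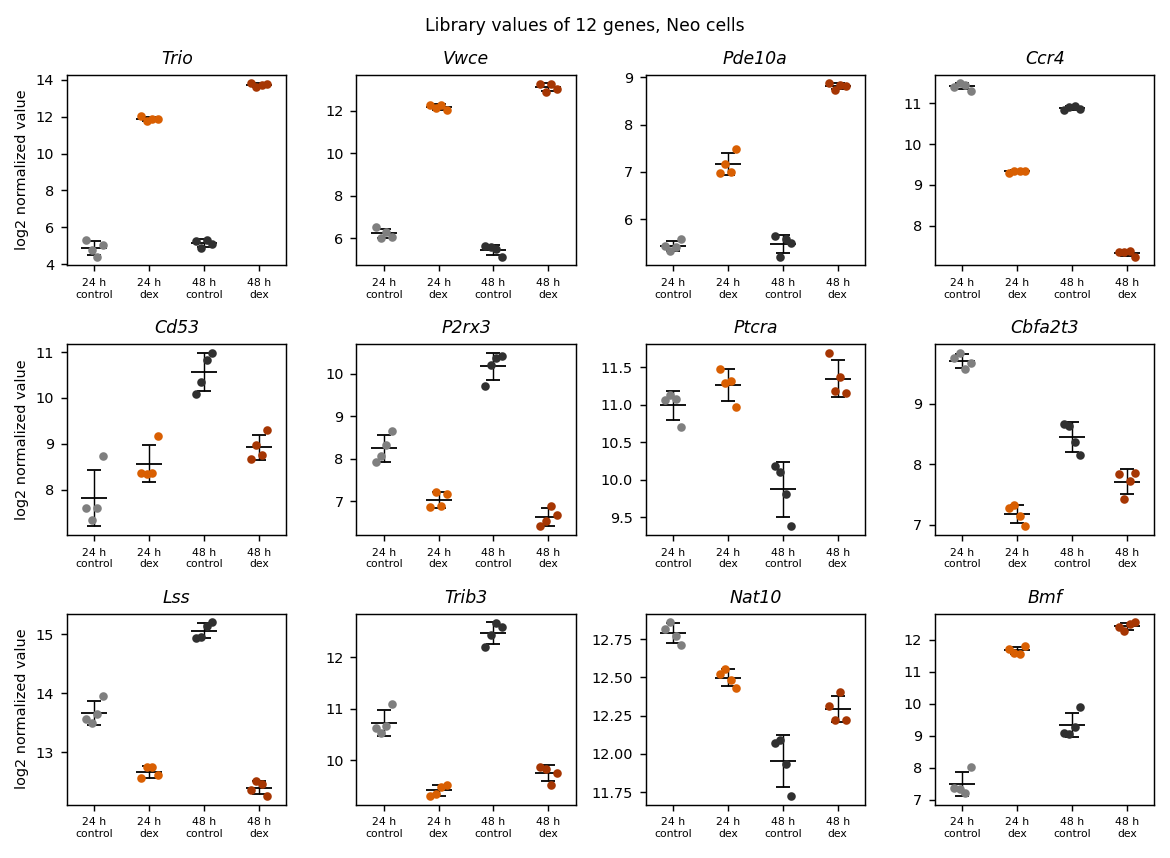
Log2 normalized values (vertical axes, with a range of their own for each gene) of 12 genes in the 4 S49 (Neo) groups, with 1 point per library and the mean ± SD of 4 libraries. Trio, Vwce, Pde10a and Ccr4 differ most between the 2 dex groups, while Cd53, P2rx3, Ptcra, Lss and Trib3 differ most between the 2 control groups.

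Cholesterol synthesis was the gene list with the most complete change. All 24 genes tested had a lower dex response at 48 h than at 24 h (24 called lower, 0 higher), against 20.1% of all genes called lower. The median change was -1.06, against 0.0064 over all genes. The list's median response was -0.60 at 24 h and -1.80 at 48 h, its median movement 0.89 in controls and -0.25 under dex.

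Lss, lanosterol synthase, which closes the sterol rings, was at 13.56, 13.50, 13.66 and 13.96 in 24 h controls and 12.56, 12.75, 12.76 and 12.62 under dex at 24 h. At 48 h it was at 14.95, 14.96, 15.14 and 15.21 in controls and 12.37, 12.52, 12.47 and 12.26 under dex. The controls rose and the dex libraries fell, without overlap in either case, and the response went from -1.0 to -2.66 (change -1.66 ± 0.12, adjusted p = 7.59e-08). Pmvk, the phosphomevalonate kinase of the pathway, changed by -1.37.

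Nsdhl, a later enzyme that removes methyl groups from the sterol, was the member that turned. It was at 11.29, 11.49, 11.48 and 11.56 in controls and 12.24, 12.21, 12.32 and 12.21 under dex at 24 h, then at 12.07, 12.24, 12.34 and 12.28 in controls and 11.78, 11.88, 11.88 and 11.67 under dex at 48 h. Dex libraries were above all controls at the first time and below all at the second, and the change was -1.22 ± 0.088 (adjusted p = 7.59e-08).

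Sterol genes are known targets of the SREBP factors, which bind a short sterol element. The promoter windows used here, from 250 bases before to 50 after each start in RefSeq (build GRCm38.p6), were searched on both strands for TCACNCCAC. It was present in 1 of the 17 cholesterol genes with a window (5.88%) and in 1.24% of all 32851 windows. That gene was Hmgcs1, the synthase of the first committed step, at 14.25 to 14.50 in 24 h controls, 13.42 to 13.70 under dex at 24 h, 15.21 to 15.50 in 48 h controls and 13.01 to 13.43 under dex at 48 h (change -1.34 ± 0.12, adjusted p = 4.94e-07). Its stretch before the start is shown as the one instance in the list, on the plus strand at chr13:119690178-119690258, with the matching letters in capitals. A match is a description of the letters and not a measured binding site.
Hmgcs1: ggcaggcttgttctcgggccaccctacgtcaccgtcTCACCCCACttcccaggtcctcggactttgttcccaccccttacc

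Lipid genes outside the sterol pathway were also mostly lower. Of 22 fatty acid synthesis genes tested, 16 were lower and 3 higher, beside 20.1% and 21.2% of all genes. Their median change was -0.31. The higher ones were Gpam, Acsl1, an acyl-CoA synthetase (0.30), and Scap, the escort of the SREBP factors (0.44). Acss2, which makes acetyl-CoA from acetate, turned from 0.75 to -0.98, and Fads2, the delta-6 desaturase, grew from -0.81 to -2.43. Fads1, the delta-5 desaturase, is an example of a response that was lost. It was at 12.67, 12.65, 12.73 and 12.78 in controls and 13.19, 13.17, 13.22 and 13.19 under dex at 24 h, and at 13.13, 13.10, 13.22 and 13.24 and 13.10, 13.14, 13.20 and 13.06 at 48 h. The 48 h groups overlapped, and the change was -0.53 ± 0.053 (adjusted p = 1.54e-06), with 0.47 of movement in controls.

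Genes of the integrated stress response, which the factor Atf4 raises when amino acids or folding capacity run short, changed almost as completely. Of 34 tested, 31 were called lower and 0 higher, beside 20.1% and 21.2% of all genes, with a median change of -0.53. Their median movement was 0.56 in controls and -0.036 under dex. Trib3, a pseudokinase at chr2:152337422-152344032 that feeds back on this pathway, was at 10.63, 10.52, 10.66 and 11.09 in controls and 9.31, 9.35, 9.48 and 9.53 under dex at 24 h. By 48 h it had reached 12.20, 12.43, 12.66 and 12.59 in controls and 9.88, 9.83, 9.53 and 9.76 under dex. The dex groups touched at 9.53 while the controls were separated by more than 1, and the change was -1.42 ± 0.16 (adjusted p = 5.13e-06).

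Nupr1, a small stress-induced chromatin protein, had a larger change at a low level. Its values were 5.74, 5.65, 6.09 and 6.70 in 24 h controls, 5.19, 4.83, 4.86 and 4.97 under dex at 24 h, 7.87, 8.05, 8.13 and 8.23 in 48 h controls and 4.75, 4.34, 4.84 and 4.55 under dex at 48 h. The change of -2.37 ± 0.25 (adjusted p = 2.79e-06) was called on the control side only. Slc7a11, the cystine transporter, was at 11.65, 11.77, 11.70 and 11.60 and 11.10, 11.17, 11.16 and 10.83 at 24 h and at 12.36, 12.60, 12.50 and 12.49 and 11.17, 11.13, 11.11 and 10.74 at 48 h in controls and dex libraries, respectively. Its dex groups overlapped, its controls did not, and the change was -0.84 ± 0.12 (adjusted p = 5.22e-05).

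The core of the element that Atf4 binds, TTGCATCA on either strand, was in the promoter window of 5 of the 29 listed genes that had one (17.2%), against 0.895% of all windows. These were Nupr1, Chac1, Slc7a11, Pycr1 and Herpud1. Of the 5, Herpud1, a gene of protein disposal at the endoplasmic reticulum, differed in that dex raised it, by 2.17 at 24 h and 1.81 at 48 h. The other 4 were lower under dex at both times, with changes of -2.37 for Nupr1, -0.96 for Chac1, a glutathione-degrading enzyme, -0.84 for Slc7a11 and -0.78 for Pycr1, an enzyme of proline synthesis. Their stretches before the start are printed because they share the element in capitals. They lie at chr7:126625537-126625616 (minus strand), chr2:119351013-119351092 (plus), chr3:50443636-50443715 (minus) and chr11:120643808-120643887 (minus). Slc7a11 holds the element in both orientations and Pycr1 in the reverse one.
Nupr1: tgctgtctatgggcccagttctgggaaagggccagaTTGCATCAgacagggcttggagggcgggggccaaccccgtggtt
Chac1: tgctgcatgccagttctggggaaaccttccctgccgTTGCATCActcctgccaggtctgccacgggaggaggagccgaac
Slc7a11: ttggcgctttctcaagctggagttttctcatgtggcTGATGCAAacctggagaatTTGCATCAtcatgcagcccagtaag
Pycr1: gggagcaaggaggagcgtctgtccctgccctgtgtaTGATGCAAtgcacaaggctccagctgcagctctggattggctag

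Aminoacyl-tRNA synthetases, some of which Atf4 raises, were less uniform. Of 20 tested, 8 were lower, among them Aars (-0.41) and Gars (-0.33), and 5 were higher, beside 20.1% and 21.2% of all genes. The higher ones were those for histidine, arginine, lysine, glutamine and an alpha chain for phenylalanine, by 0.14 to 0.27 (Qars and Rars at the ends). In the serine and one-carbon branch Psat1 (-0.46), Phgdh (-0.45) and Shmt2 (-0.41) were lower, whereas 18 of the 31 nucleotide and one-carbon genes tested were higher (11 with quantile normalization) and 7 lower.

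Glycolysis, hypoxia targets and early response genes also had a higher median in controls at 48 h than at 24 h. Glycolysis had 13 of 22 genes lower and 1 higher, a median change of -0.54 and a control movement of 0.74. Aldoc, an aldolase, came late with a change of -1.74, and Slc16a1, a lactate transporter, was the exception with a change of 0.45 on the dex side. The number of glycolysis genes called lower was 8 without 24 h control replicate 2 or 3, 24 h dex replicate 4, 48 h control replicate 4, or 48 h dex replicate 1 or 3. It was 7 with all 32 libraries or with no minimum mean. Of 23 targets of the hypoxia-inducible factors, 6 were lower and 1 (P4ha2, 1.03) higher, beside 20.1% and 21.2% of all genes, and 12 were lower without 24 h control replicate 4 and 11 without 48 h dex replicate 4. Their median change was -0.55, or -0.30 without 48 h dex replicate 3. Vegfa, the vascular growth factor, changed by -0.79 and Hif3a, a subunit of a hypoxia-inducible factor, by -1.21 from 4.49 at 24 h.

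Early response genes, transcription factors and phosphatases that T cells raise within minutes of a stimulus, had 13 of 19 lower and 2 higher (median -0.70), beside 20.1% and 21.2% of all genes. The higher ones were Myc and Dusp2, a phosphatase of MAP kinases (0.36). Nr4a1, an orphan nuclear receptor of this group, was at 10.46, 9.52, 10.26 and 11.30 in 24 h controls and 9.67, 9.01, 9.48 and 9.84 under dex at 24 h, and at 11.98, 11.65, 11.96 and 12.70 in 48 h controls and 8.53, 8.97, 9.04 and 9.54 under dex at 48 h. Overlapping at 24 h, the groups lay more than 2 units apart at 48 h, and the change was -2.17 ± 0.42 (adjusted p = 0.000687). Junb (-1.08), Fosb (-1.49) and Ier2 (-0.75) came late with the movement in controls.

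In immune signalling the shifts were smaller and in the same direction. Of 15 NF-kB subunits and targets tested 9 were lower and 1 higher (Nfkbie, an inhibitor, 0.32), with Relb at -0.78 and Tnfaip3, an inhibitor of the pathway, at -0.54. Of 47 interferon-stimulated genes 24 were lower and 3 higher (median -0.32), led by Gbp2, a guanylate-binding protein, at -2.01. Both counts stand beside 20.1% of all genes lower and 21.2% higher. The median movement of the NF-kB list was 0.49 in controls and 0.21 under dex. For the interferon list it was 0.24 and 0.00052. Stat2, a signalling subunit of the interferon pathway, turned from 0.24 to -0.49, and Bst2, the tethering protein tetherin, was higher at 0.40, as were Oasl1 (0.38) and Trim25, a ubiquitin ligase (0.25).

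The opposite movement was found in genes that build ribosomes. Of 77 ribosome biogenesis and nucleolar genes tested, 74 had a higher response at 48 h and 0 a lower one, against 21.2% of all genes called higher. The median response was -0.29 at 24 h and 0.071 at 48 h (median change 0.35). Their median movement was -0.55 in controls and -0.19 under dex, and the control had moved more for all 77 genes. A fit of all 32 libraries called 45 higher.

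Nat10, an RNA acetyltransferase of the nucleolus at chr2:103721256-103761270, had values of 12.82, 12.86, 12.77 and 12.71 in 24 h controls and 12.52, 12.56, 12.49 and 12.43 under dex at 24 h. Its 48 h values were 12.07, 12.09, 11.93 and 11.73 in controls and 12.31, 12.23, 12.40 and 12.22 under dex. The dex libraries were below all controls at 24 h and above all at 48 h, while both groups were lower at the later time without overlap. The response of Nat10 turned from -0.29 to 0.33 (change 0.62 ± 0.09, adjusted p = 5.79e-05). Utp4, a subunit of the small-subunit processome, changed by 0.52 and Emg1, a methyltransferase of 18S ribosomal RNA, by 0.35.

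Myc is known to raise this gene group through the E-box CACGTG, a palindrome that reads alike on both strands. It was in the promoter window of 13 of 69 listed genes with one (18.8%), in 11.8% of all tested genes with a window and in 7.15% of all windows. Myc itself had a response of -0.39 at 24 h and -0.21 at 48 h (change 0.18, adjusted p = 0.00478). Nop2, a methyltransferase of 28S ribosomal RNA (change 0.61 ± 0.10, adjusted p = 0.000132), and Imp4, a processome protein (change 0.40 ± 0.087, adjusted p = 0.00173), carry it before the start and are shown for that reason, at chr6:125131787-125131864 and chr1:34439672-34439749, both on the plus strand.
Nop2: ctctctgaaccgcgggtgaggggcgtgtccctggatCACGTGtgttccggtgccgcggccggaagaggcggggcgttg
Imp4: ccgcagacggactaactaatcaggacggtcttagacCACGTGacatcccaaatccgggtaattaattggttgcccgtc

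Cytosolic ribosomal proteins, a separate list, had 58 of 78 genes higher and 0 lower, beside 21.2% and 20.1% of all genes, with a median change of 0.18. With quantile normalization 13 were higher at a median of 0.056, and with all 32 libraries in the fit 11 were higher. Many have processed copies in the genome, among which reads may be split. Rps14, a protein of the small subunit, was at 15.58, 15.60, 15.56 and 15.50 in 24 h controls and 16.03, 16.04, 16.05 and 16.07 under dex at 24 h, and at 15.52, 15.50, 15.55 and 15.48 in 48 h controls and 16.34, 16.37, 16.33 and 16.46 under dex at 48 h. Its controls overlapped between times and its dex groups did not, so in this gene the change of 0.38 ± 0.048 (adjusted p = 1.91e-05) lay under dex, unlike in Nat10.

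Mitochondrial ribosomal proteins (45 of 75 higher, 0 lower), nuclear genes of oxidative phosphorylation (36 of 74 higher, 2 lower), proteasome genes (21 of 41 higher, 1 lower) and chaperones (19 of 35 higher, 2 lower) likewise had more genes called higher than lower, at medians of 0.17, 0.13, 0.15 and 0.18. These counts stand beside 21.2% of all genes higher and 20.1% lower. Psma4, a proteasome core subunit, was at 0.64 and Mrps6 at 0.58. With quantile normalization 20 oxidative phosphorylation, 11 proteasome and 10 chaperone genes were higher. With all 32 libraries in the fit these 3 lists had 10, 3 and 4 higher, and mitochondrial ribosomal proteins had 13. Without 24 h control replicate 2 the proteasome count was 12, and without 24 h dex replicate 4 or 48 h control replicate 4 it was 13. The lower ones were Ndufv3 (-0.41) and Ndufa1 (-0.13) of complex I, the proteasome activator Psme1 (-0.31) and the chaperone genes Dnajb1 (-0.22) and Hspa4l (-0.25). The abundant chaperone Hspa8 had a fall of -0.33 at 24 h that was no longer called at 48 h (0.11). The plot of movement by gene list shows the control medians further from 0 than the dex medians in most of these groups.

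**Figure D3:**
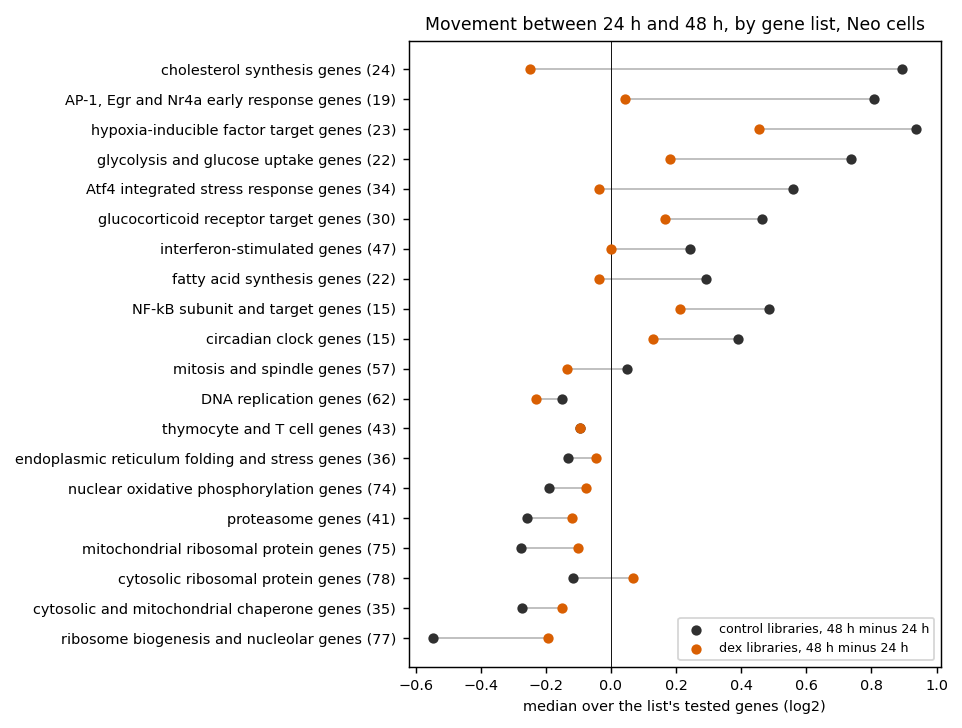
Median movement from 24 h to 48 h (horizontal axis, log2) over the tested genes of 20 lists in S49 (Neo) control (black) and dex (orange) libraries, ordered by the median change, with the number of genes tested in brackets. Cholesterol synthesis moved by 0.89 in controls and -0.25 under dex, and ribosome biogenesis by -0.55 and -0.19.

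Known targets of the glucocorticoid receptor did not share 1 course. Of 30 tested, 15 had a lower and 6 a higher response at 48 h, beside 20.1% and 21.2% of all genes. The median response was 1.20 at 24 h and 1.01 at 48 h. Nr3c1, the receptor, was raised by 0.98 at 24 h and 0.79 at 48 h (change -0.20 ± 0.063, adjusted p = 0.0178). Fkbp5, an immunophilin used as a marker of receptor activity, had responses of 0.48 and 0.53, and its change was not called (adjusted p = 0.492).

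Tsc22d3, which encodes the glucocorticoid-induced leucine zipper, was at 11.63, 11.64, 11.77 and 12.02 in controls and 13.39, 13.45, 13.49 and 13.48 under dex at 24 h. At 48 h it was at 12.52, 12.72, 12.87 and 12.86 in controls and 13.63, 13.74, 13.61 and 13.76 under dex. Both groups were higher at 48 h without overlap, the controls by 0.98 and the dex libraries by 0.23, so the response narrowed to 0.94 from 1.69 (change -0.74 ± 0.11, adjusted p = 7.87e-05). Per1, a clock gene and receptor target, narrowed from 2.69 to 1.91 in the same way.

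Ddit4, an inhibitor of the growth kinase complex mTORC1 and a receptor target, narrowed most of these. Its values were 14.13, 13.50, 13.82 and 14.43 in 24 h controls, 16.05, 15.80, 15.90 and 15.96 under dex at 24 h, 15.51, 15.73, 15.81 and 15.83 in 48 h controls and 16.33, 16.26, 16.14 and 16.32 under dex at 48 h. Dex and control did not overlap at either time, but the 48 h controls reached the lower end of the 24 h dex values, and the response fell from 1.96 to 0.54 (change -1.41 ± 0.19, adjusted p = 2.62e-05).

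Sgk1, a salt- and stress-regulated kinase, is shown because its window holds the palindromic glucocorticoid element, GNACA and TGTNC with 3 bases between them. This was found in 2 of 26 listed targets with a window (7.69%), Sgk1 and Txnip, and in 0.475% of all windows. It was at 10.69 to 10.78 in 24 h controls, 11.76 to 11.89 under dex at 24 h, 10.87 to 11.25 in 48 h controls and 11.49 to 11.74 under dex at 48 h. Dex and control did not overlap at either time, and the change was -0.58 ± 0.093 (adjusted p = 0.000151), the dex libraries having fallen and the controls risen. The stretch lies on the plus strand at chr10:21993666-21993750.
Sgk1: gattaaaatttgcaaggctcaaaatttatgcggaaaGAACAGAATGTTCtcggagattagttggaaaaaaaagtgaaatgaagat

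Among the death genes, Bmf and Bcl2l11 encode BH3-only proteins that bind and block the anti-apoptotic Bcl-2 family. Bmf, at chr2:118528757-118549687, was at 7.38, 7.32, 7.21 and 8.02 in controls and 11.72, 11.60, 11.57 and 11.81 under dex at 24 h, and at 9.09, 9.06, 9.27 and 9.89 in controls and 12.40, 12.29, 12.48 and 12.55 under dex at 48 h. It was higher at 48 h in both groups without overlap, by 1.85 in controls and 0.75 under dex, and its response narrowed from 4.19 to 3.10 (change -1.09 ± 0.23, adjusted p = 0.00136). Bcl2l11, which encodes Bim, was at 12.41, 12.32, 12.41 and 12.45 and 13.47, 13.47, 13.50 and 13.57 at 24 h and at 12.77, 12.76, 12.77 and 12.94 and 13.77, 13.78, 13.77 and 13.84 at 48 h in controls and dex libraries, respectively. Its response was 1.10 and 0.98, and the change of -0.13 ± 0.056 was not called (adjusted p = 0.0746).

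Bbc3, which encodes Puma, was lower under dex by a like amount at both times (-0.45 and -0.50, adjusted p of the change = 0.758) while both groups rose between times. The next values are changes of the dex response over time, not directions under dex. Of the 5 BH3-only genes tested, the change was higher for Bid (0.26) and lower for Bmf and Bad (-0.21). Of the effectors, it was higher for Bax (0.26) and lower for Bak1 (-0.26). Of the anti-apoptotic genes it was higher for Mcl1 (0.18), lower for Bcl2l1 (-0.29) and not called for Bcl2 (-0.16, adjusted p = 0.517). Bax was lower under dex at both times, at 12.15 to 12.33 in controls and 11.66 to 11.81 under dex at 24 h. At 48 h it was at 11.93 to 12.11 and 11.65 to 11.88, so its fall shrank. Bid was at 11.88 to 12.15 and 11.56 to 11.71 at 24 h, and at 11.36 to 11.60 and 11.32 to 11.42 at 48 h. Among 22 caspase and apoptosome genes 8 were lower and 4 higher (Casp1, Birc6, Dffa and Diablo, by 0.18 to 0.45), beside 20.1% and 21.2% of all genes. Their median change was -0.083. Casp9, the initiator of the mitochondrial route, was at -0.55, and the response of the death receptor Fas narrowed from 1.65 to 0.96.

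Of 43 T-cell genes tested 11 were higher and 11 lower, near the 21.2% and 20.1% of all genes. Ptcra, the invariant chain of the pre-T-cell receptor at chr17:46755663-46763712, was at 11.06, 11.13, 11.07 and 10.71 in 24 h controls, 11.47, 11.29, 11.32 and 10.97 under dex at 24 h, 10.18, 10.11, 9.81 and 9.38 in 48 h controls and 11.69, 11.18, 11.37 and 11.15 under dex at 48 h. Only the 48 h controls were apart, lower than all other libraries, and the response came late (change 1.21 ± 0.22, adjusted p = 0.000398). Bcl11b, a factor of T-cell commitment (0.52), and Dntt, the terminal transferase (0.41), were higher as well. Cd3d, a chain of the T-cell receptor complex, was lower, from -0.61 at 24 h to -1.0 at 48 h.

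The changes of cell cycle genes were small. Of 62 DNA replication genes 19 were lower and 2 higher (Orc2 and Pole3, 0.23 and 0.18), at a median of -0.091. Of 57 mitosis and spindle genes 30 were lower and 1 (Spc25, 0.19) higher, at a median of -0.16. Of all genes, 20.1% were lower and 21.2% higher. In a fit of all 32 libraries 4 replication and 10 mitosis genes were lower, and the replication median was -0.036 without 48 h dex replicate 3. Pole, the catalytic subunit of DNA polymerase epsilon, was at 12.65, 12.63, 12.62 and 12.59 in controls and 12.52, 12.55, 12.51 and 12.45 under dex at 24 h, and at 12.60, 12.59, 12.55 and 12.62 and 12.30, 12.29, 12.25 and 12.32 at 48 h. Its controls overlapped, its dex groups did not, and the response went from -0.12 to -0.30 (change -0.18 ± 0.038, adjusted p = 0.0012). Kif2c, a kinesin that corrects spindle attachments, was at 11.77, 11.82, 11.72 and 11.81 in controls and 11.72, 11.80, 11.89 and 11.74 under dex at 24 h, and at 11.93, 11.93, 12.09 and 12.14 and 11.63, 11.67, 11.67 and 11.66 at 48 h. Overlapping at 24 h, its groups were apart at 48 h, with a change of -0.37 ± 0.067 (adjusted p = 0.000383). Among cell cycle regulators Cdkn1b, the inhibitor p27, turned from 0.46 to -0.35, and Myb, a factor of immature lymphoid cells, grew from 0.39 to 0.98.

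Mitotic promoters share the CHR element TTTGAA, bound by a cell cycle repressor complex. It was in the window of 34 of 45 mitosis genes with one (75.6%), against 17.9% of all windows. Kif2c and Ccnb2, the mitotic cyclin B2 (change -0.37 ± 0.079, adjusted p = 0.00153), hold it before the start, on the minus strand at chr4:117178834-117178911 and chr9:70421680-70421757, in Kif2c in the reverse orientation.
Kif2c: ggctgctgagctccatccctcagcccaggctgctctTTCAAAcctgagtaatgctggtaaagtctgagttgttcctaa
Ccnb2: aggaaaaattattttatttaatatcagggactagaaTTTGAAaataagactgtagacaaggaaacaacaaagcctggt

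The same change was compared with that of S49 (Bcl-2) cells in 1 fit, as Neo minus Bcl-2. In that line 24 h dex replicate 3 stood apart, with an SD of 0.766 from the others of its group against at most 0.313 in the other libraries of the line. Both results are therefore given. With all 32 libraries 568 of 11562 genes (4.91%) were higher and 202 (1.75%) lower in S49 (Neo). Without that library 1224 (10.6%) were higher and 612 (5.29%) lower.

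Among the lists, those of mitosis and DNA replication had the largest shares of members called between the lines. Without that library 56 of 57 mitosis genes and 53 of 62 replication genes had a higher change in S49 (Neo), beside 10.6% of all genes. With all 32 libraries 38 and 41 did, beside 4.91%. The median change of mitosis genes was -0.16 in S49 (Neo) and -0.99 in S49 (Bcl-2), where the dex libraries moved by -0.91 and the controls by 0.089. In S49 (Bcl-2) cells Kif2c was at 11.74, 11.74, 11.78 and 11.77 in controls and 11.62, 11.65, 11.81 and 11.53 under dex at 24 h, and at 11.90, 11.98, 12.12 and 12.14 and 10.86, 10.84, 10.73 and 10.56 at 48 h. All 4 of the 48 h dex values lay under every S49 (Neo) value of the gene, and the lines differed by 0.82 ± 0.13 with all 32 libraries (adjusted p = 0.000159) and by 0.76 ± 0.12 without replicate 3. Pole was at 11.07, 11.07, 11.09 and 10.97 in S49 (Bcl-2) under dex at 48 h and differed between lines by 0.86 ± 0.066 (adjusted p = 4.40e-09).

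Endoplasmic reticulum genes also differed, 28 of 36 without replicate 3 and 17 with all libraries, all higher in S49 (Neo). Of all genes, 10.6% were higher and 5.29% lower without that library, and 4.91% and 1.75% with it. In S49 (Neo) the dex response of 16 of the 36 genes was higher at 48 h than at 24 h and that of 9 lower, beside 21.2% and 20.1% of all genes. Calr, the calcium-binding chaperone calreticulin, changed by 0.42. It was at 15.59 to 15.73 in 24 h controls and 15.15 to 15.25 in 48 h controls. Under dex it was at 15.77 to 15.96 at 24 h and 15.80 to 15.96 at 48 h. The list's median change was 0.084 in S49 (Neo) and -0.43 in S49 (Bcl-2). Genes of homologous recombination were higher in S49 (Neo) for 30 of 40 without replicate 3 and for 16 with it. Ribosomal proteins were lower in S49 (Neo) for 31 of 78 genes without that library. With it 2 were lower (Rpl9 and Rpl17), a share near the 1.75% of all genes.

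In the test between lines, of 24 cholesterol genes 3 were higher in S49 (Neo) without replicate 3 and 0 with it, beside 10.6% and 4.91% of all genes. At an unadjusted p under 0.05 in limma the counts were 11 and 8. Of 77 ribosome biogenesis genes 0 were called in either fit, and 0 had an unadjusted p under 0.05. Medians of the change were -1.06 in S49 (Neo) and -1.45 in S49 (Bcl-2) for cholesterol synthesis, and 0.35 and 0.32 for ribosome biogenesis. A p that misses the threshold does not show that the lines moved alike. Control medians of the cholesterol list moved by 0.89 in S49 (Neo) and 0.88 in S49 (Bcl-2). Atf4 genes lay between, with 14 of 34 higher in S49 (Neo) without replicate 3 and 10 with it.

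**Figure D4:**
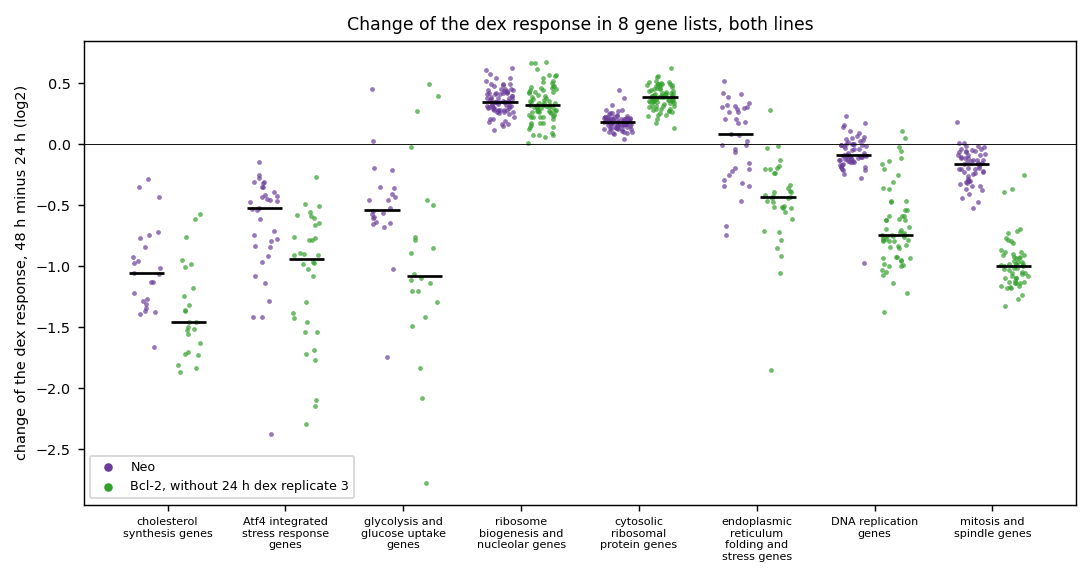
Change of the dex response from 24 h to 48 h (vertical axis, log2) for the genes of 8 lists tested in S49 (Neo), with 1 point per gene, in S49 (Neo) cells (purple) and in S49 (Bcl-2) cells without 24 h dex replicate 3 (green), and the median as a bar. The mitosis median is -0.16 in S49 (Neo) and -0.99 in S49 (Bcl-2), while the ribosome biogenesis medians are 0.35 and 0.32.

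Single genes with the largest difference between lines included P4ha2, a subunit of collagen prolyl hydroxylase. In S49 (Neo) it was at 5.80, 5.10, 5.31 and 5.31 in controls and 8.92, 8.78, 8.98 and 9.04 under dex at 24 h, and at 5.48, 4.71, 5.08 and 4.88 and 9.67, 9.56, 9.70 and 9.55 at 48 h. In S49 (Bcl-2) the values were 5.12, 5.33, 5.58 and 5.19 and 9.88, 9.86, 10.44 and 9.85 at 24 h and 6.10, 5.90, 6.40 and 6.69 and 10.11, 10.03, 9.97 and 9.79 at 48 h. Its controls were higher at 48 h than at 24 h without overlap in S49 (Bcl-2) and overlapped in S49 (Neo), and the response grew by 1.03 in S49 (Neo) and changed by -1.0 in S49 (Bcl-2) (difference 2.03 ± 0.33, adjusted p = 0.000211). Ppp1r32 was among the growing responses of S49 (Neo) and had a change of -0.083 in S49 (Bcl-2) (difference 1.61, adjusted p = 0.000468). The fall of Cbfa2t3 under dex shrank in both, by 1.79 in S49 (Neo) and 3.18 in S49 (Bcl-2) (difference -1.38, adjusted p = 0.00174).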

How the data were processed

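RNA was extracted from S49 (Neo) and S49 (Bcl-2) cells after 24 h or 48 h with vehicle or 250 nM dex, with 4 libraries per group. Libraries were made with a TruSeq poly(A) kit and sequenced as reads of 75 bases. The submitters' processing notes name STAR, featureCounts, DESeq2 and mm10. The authors deposited 1 table of log2 normalized values, and which DESeq2 transform made them is not given in the sources used here. No counts are in it, and the study's methods give the reads per sample only as a range, so the depth of each library is unknown and no counting interval is given. Whether counting used strand is not stated either, so overlapping and antisense genes cannot be told apart.

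All 32 columns matched a sample by title, none was left over, and no pair of libraries was identical. Of 24538 genes, 11515 averaged 3.46 or more (log2 of 10 plus 1) over the 16 S49 (Neo) libraries and were fitted with limma 3.58.1 in R 4.3.3 (1 mean per group, moderated variances with a trend on the mean, all genes in 1 fit). The contrast was dex minus control at 48 h, less dex minus control at 24 h, two-sided, with Benjamini-Hochberg adjustment and a threshold of 0.05. The comparison of lines used all 32 libraries and 11562 genes. Scripts were tested on simulated data. The median change over all genes was 0.0064.

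The members and gene lists were chosen with earlier results of these data known. Named genes were the 15 largest changes in each direction at a mean of at least 6.66, up to 5 genes per list and 4 per kind of response by smallest p, a set of receptor and death genes, and the 5 largest differences between lines in each direction. Hmgcs1, Herpud1, Pycr1, Nop2, Imp4, Ccnb2 and Sgk1 were added for a motif in their promoter window, and Phactr3 and Nos2 for the size of their change. Where 5 or fewer genes of a list went against the rest they were named after their values were seen. Klf9 and Pmaip1 lay under the minimum. Gene positions are GENCODE M21 on mm10, and promoters are RefSeq on GRCm38.p6. Alternatives were other minimum values, normalizations, fits and left-out libraries, and 1, leaving out replicate 4 of each group, was chosen after seeing the data. The table holds 26 gene symbols turned into dates, which were not named. A few genes are not reported here.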

Additional observations from a re-analysis of the deposited data

Results flagged for a closer look

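The 4 libraries of each S49 (Neo) group were checked for a library far from the others in 31 of the genes named in the text, by Dixon's gap-to-range test. It picked out 6 of 124 groups, and chance alone picks out about 1 in 20. For B2m, 48 h control replicate 1 was at 14.25 and the others at 14.37 to 14.39. For Ptcra, 24 h control replicate 4 was at 10.71 and the others at 11.06 to 11.13. For Cd53, 24 h dex replicate 4 was at 9.16 and the others at 8.34 to 8.37. For Slc7a11, 48 h dex replicate 4 was at 10.74 and the others at 11.11 to 11.17. For Bcl2l11, replicate 4 was the highest both in 48 h controls, at 12.94 against 12.76 to 12.77, and in 48 h dex libraries, at 13.84 against 13.77 to 13.78.

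The change over time differed between S49 (Neo) and S49 (Bcl-2) cells, by the test of the difference itself, for 568 genes higher and 202 genes lower in S49 (Neo) with all 32 libraries, and for 1224 and 612 without S49 (Bcl-2) 24 h dex replicate 3. With all 32 libraries the largest differences at a mean of at least 6.66 were 2.03 for P4ha2 (adjusted p = 0.000211 in limma), 1.97 for Ptprb, a receptor tyrosine phosphatase (0.000251), 1.73 for Lmo7 (0.0201), 1.61 for Ppp1r32 (0.000468) and 1.60 for Dsp, desmoplakin (1.38e-06). In the other direction they were -1.77 for Tle2, a corepressor (1.18e-05), -1.55 for Grasp (0.000159), -1.51 for Fbxo32, a ubiquitin ligase subunit (0.00172), -1.44 for Ccr9, a chemokine receptor of thymocytes (0.0368), and -1.38 for Cbfa2t3 (0.00174). Ccr4 differed by -1.19 (adjusted p = 0.00167), Kif2c by 0.82 (0.000159) and Pole by 0.86 (4.40e-09).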

How the results depend on the processing

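Of 223 named genes 211 were called. Of these, 172 kept their direction and their call under every one of the 28 alternatives in which they were tested, with 0 reversed. At a mean of at least 6.66 only 208 of the 223 were tested, and a gene left out there was counted as kept. With all 32 libraries in 1 fit, whose shared variance includes S49 (Bcl-2) 24 h dex replicate 3, 36 lost the call, the change was called for 1008 genes higher and 1217 lower, and the dex movement for 1214 and 957. Of 72 counts by gene list, 49 moved by more than 1.5 times in that fit, 15 with quantile normalization and 9 with replicate 4 of each group left out. Without that library the change in S49 (Bcl-2) went from 1281 higher and 1892 lower to 2657 and 3142, and the difference between lines from 568 and 202 to 1224 and 612. Leaving out 1 library at a time gave 2115 to 2584 genes with a higher and 1980 to 2538 with a lower change, 3523 to 3725 and 3933 to 4185 at 24 h, 3917 to 4097 and 4035 to 4173 at 48 h, 2049 to 2656 and 1828 to 2350 for dex over time, and 3563 to 3931 and 3298 to 3562 for controls over time. Without replicate 4 of each group, an alternative chosen after seeing the data, 2106 were higher and 2040 lower.

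The replicate numbers were not taken as pairs, since same-numbered deviations of dex and control did not correlate above 0.1 for every number. They correlated at 0.0513 to 0.478 at 24 h and 0.0378 to 0.442 at 48 h. Deviations of different numbers correlated at a mean of -0.0919 at 24 h and -0.0792 at 48 h, so the same numbers were more alike. Deviations were taken from group means and sum to 0 in each group. The negative means follow in part from this and are no separate evidence of pairs. Whether the numbers mark pairs was not settled. Of the 4 controls, 3 correlated best with their own number at each time. With the number as a replicate block the change was called for 3031 higher and 2849 lower genes, and the difference between lines for 745 and 318, while 1047 responses faded and 557 turned. The unknown depth limits what can be said of genes near the minimum, and changes of at least 1 numbered 26 higher and 97 lower at a mean of at least 6.66, against 70 and 170 over all genes tested.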

Other observations

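Some values belong in no comparison above. The replicate 4 libraries lay along the movement of controls from 24 h to 48 h in all 4 S49 (Neo) groups. The distance of each library from the mean of the others of its group was taken as a share of that movement over the genes tested. The movement was computed without the library itself. For replicate 4 the share was 30.9% in 24 h controls, 18.1% in 24 h dex, 32.6% in 48 h controls and 16.5% in 48 h dex libraries. The other 12 libraries were at -22.7% to 0.311%. What the libraries numbered 4 share is not given in the sources used here, and its part in the results was not tested beyond leaving them out. Rn45s, the ribosomal RNA precursor that poly(A) selection should remove, was at 20.15 in 48 h dex replicate 1 and at 16.63 to 18.90 in the other S49 (Neo) libraries.

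Further gene lists had small or mixed changes, to be set beside the 21.2% of all genes called higher and the 20.1% called lower. Of the 21 p53 targets tested 7 were higher and 6 lower, with Trp53inp1, an autophagy and stress gene, at -1.27. Of 46 lysosomal genes 9 were higher and 16 lower, and of 36 autophagy genes 4 (Atg2b, Atg5, Atg16l1 and Ulk1) and 7. Of 15 clock genes 1 was higher (Per2, 0.69) and 8 were lower.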
